A study of Mus musculus with 58 samples.

Results

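The earliest SLAM-seq time point after degradation of DPY30 or RBBP5 is described here, 2 h against 0 h, in mouse embryonic stem (mES) cells of the E14 line (129/Ola background). SLAM-seq marks RNA made during a pulse of 4-thiouridine, here 100 µM for 60 min before RNA isolation. Iodoacetamide treatment makes the label read as a T>C conversion. Reads with a conversion therefore come mostly from RNA made in the pulse, beside a background that arises without label. The members were the 0 h and 2 h SLAM-seq libraries of both degron lines, 12 of the 58 libraries of the series, with 3 per line and time. DPY30–mAID cells carry an auxin-inducible degron on both copies of Dpy30 together with the plant F-box protein OsTIR1 and were treated with auxin. RBBP5–FKBP cells, a clonal line with both copies of Rbbp5 tagged, were treated with dTAG-13. Each line is 1 genotype measured against its own untreated 0 h cells, so all 6 libraries of a line carry the tag, and the ligand is absent at 0 h. Another line, DPY30–mAID cells lacking Kdm5a and Kdm5b (dKO), and the 8 h libraries are given for comparison.

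DPY30 and RBBP5 are core subunits shared by the SET1/COMPASS and MLL complexes, which methylate lysine 4 of histone H3. Their trimethylated product, H3K4me3, sits at active promoters, above all those rich in CpG dinucleotides, and is removed by the KDM5 demethylases. Nascent RNA reports synthesis with little delay, whereas the total level of an mRNA follows only as fast as the old molecules decay.

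Markers of the labelled cell type were present throughout, apart from Stat3, 1 of the 21 naive pluripotency factors, which had no read. In all 12 libraries the naive pluripotency factors together held between 10570 and 13650 CPM (reads per 1000000 reads of the library), and the primitive endoderm markers between 464.8 and 667.8. Trophectoderm markers held at most 151 CPM and fibroblast markers at most 27.3, with 5 of the 10 fibroblast genes without a read. The markers of 2-cell-like cells held at most 0.822 CPM. The 12 libraries held between 1721185 and 2852331 reads in 3′ UTRs, of which between 136082 and 444450 had a T>C conversion.

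The label itself differed between the times. In DPY30–mAID cells 15.8% ± 0.463 of reads had a conversion at 0 h and 14.7% ± 0.273 at 2 h, and in RBBP5–FKBP cells the shares were 9.56% ± 0.525 and 7.63% ± 0.272 (SD, n = 3 each). The 0 h and 2 h libraries did not overlap in either line. The exact permutation test gave p = 0.1 in each line, two-sided, which is the smallest value that 3 against 3 libraries allow. Conversions per covered T position were also lower without overlap, going from 1.05% ± 0.0416 to 0.943% ± 0.0213 and from 0.593% ± 0.0444 to 0.447% ± 0.0175. Less new RNA and less incorporated label cannot be told apart in these libraries, nor can fewer cells of a type and less RNA per cell. Without 4-thiouridine, in Quant-seq libraries of DPY30–mAID cells labelled DMSO at 0 h, between 0.303% and 0.338% of reads had a T>C conversion. Those reads covered 11.5 to 11.6 T positions each and the SLAM-seq reads 18.4 to 19.0, so the shares of reads are not alike. Per covered T position the Quant-seq values were 0.0252% and 0.0279%.

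**Figure D1:**
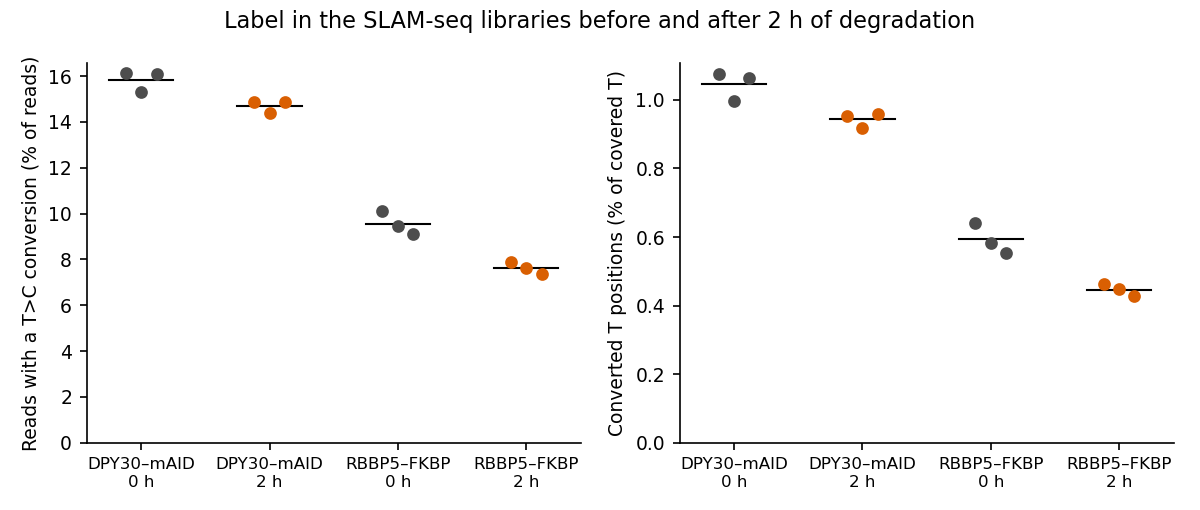
Share of reads with a T>C conversion (left, percent of reads) and of covered T positions that were converted (right, percent) in each of the 12 libraries; each point is 1 library and the line is the mean of 3. The 2 h libraries lie under the 0 h libraries in both lines, and RBBP5–FKBP libraries held less label than DPY30–mAID libraries at both times.

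At 2 h few genes passed the test in either line, and those that passed were almost all lower. In DPY30–mAID cells 25 genes had fewer T>C reads (0.417% of 5994 tested) and 1, Banp, had more (0.0167%). In RBBP5–FKBP cells 45 of 4577 had fewer (0.983%) and 0 had more. These are calls at an adjusted p under 0.05 in edgeR's quasi-likelihood test, with T>C reads scaled by all reads. Without adjustment, p was under 0.05 for 476 lower and 146 higher genes in DPY30–mAID and for 607 lower and 50 higher genes in RBBP5–FKBP. Only 5 of the 25 and 22 of the 45 changed by more than 1 on the log2 scale. The median over all tested genes was -0.09 in DPY30–mAID and -0.34 in RBBP5–FKBP, so the change of a gene has to be read against that shift.

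Fitted over both lines at once, the mean of their effects was below 0 with an adjusted p under 0.05 for 193 of 6113 genes (3.16%) and above 0 for 2, Stard7 and Ccp110 (0.0327%). The difference between the lines passed for no gene in either direction by the same edgeR test; 351 and 114 genes had an unadjusted p under 0.05, and DESeq2 called 4. Without DPY30–mAID 0 h replicate 1 the 193 became 111, and without 2 h replicates 1 and 2 they became 112 and 109. The 2 higher genes became 1 without each of the DPY30–mAID libraries or RBBP5–FKBP 2 h replicates 2 or 3, and 14, 6 and 4 without RBBP5–FKBP 0 h replicates 1, 2 and 3. Genes called lower in both single-line fits were 9 in number: Mat2a, Jade1, Jarid2, Bex1, Ldha, Pcbp1, Ppia, Olfr1388 and Actg1. All 25 genes called lower in DPY30–mAID had a value below 0 in RBBP5–FKBP, as did 43 of the 44 genes called in RBBP5–FKBP and tested in DPY30–mAID. Over all 4458 genes tested in both lines, 72.0% had a value below 0 in RBBP5–FKBP and 60.0% in DPY30–mAID.

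The counts rest on the scale and on single libraries. Tests scaled by T>C reads instead of all reads, with normalization factors (TMM) from T>C reads, left a median of -0.02 in DPY30–mAID and -0.08 in RBBP5–FKBP. No gene then passed in either line (0 and 0), and 29 lower and 1 higher passed in the mean of the lines. With the 8 h and 24 h libraries in the same fit, 0 genes passed in DPY30–mAID, 12 in RBBP5–FKBP and 0 in the mean. Leaving out DPY30–mAID 2 h replicate 1, 2 or 3 turned the 25 into 0 each time, and leaving out 0 h replicate 2 left 4. Without RBBP5–FKBP 2 h replicates 1, 2 or 3 the 45 became 5, 8 and 2, and without 0 h replicate 2 they became 29.

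Genes that moved the same way in every library of both lines were then listed. A gene counted as shared when every 2 h library lay under (or over) every 0 h library in both lines, in T>C CPM (T>C reads per 1000000 reads of the library), among the 4458 genes tested in both. In DPY30–mAID 443 genes were lower without overlap (9.94%) and 248 higher (5.56%), and in RBBP5–FKBP 744 were lower (16.7%) and 125 higher (2.8%). The shared genes were 133 lower (2.98%) and 11 higher (0.247%). With T>C reads scaled by the library's T>C reads instead, the counts were 38 lower and 40 higher, a scale that fixes the sum of T>C reads in each library and so draws the directions towards balance. The 133 are 30.0% of the DPY30–mAID list and 17.9% of the RBBP5–FKBP list, and the 11 are 4.435% and 8.8%. Since these are the values that made the lists, they describe the members and support nothing further.

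The 133 shared lower genes changed by between -2.52 and -0.17 in DPY30–mAID (median -0.53) and between -3.73 and -0.18 in RBBP5–FKBP (median -0.75), on the log2 scale. Beyond -1 lay 17 genes in DPY30–mAID, 38 in RBBP5–FKBP and 11 in both. In the mean of the lines 87 of the 133 passed the test, as did 191 of the 4458 genes; that test uses the libraries that chose the 133, so nothing is read from the count. Their log2 change was the lower in RBBP5–FKBP for 107 genes, where the median of all 4458 genes was also the lower (-0.33 against -0.10). Against those medians the typical shared gene lay about as far down in both lines, as the plot of the change in both lines shows.

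**Figure D2:**
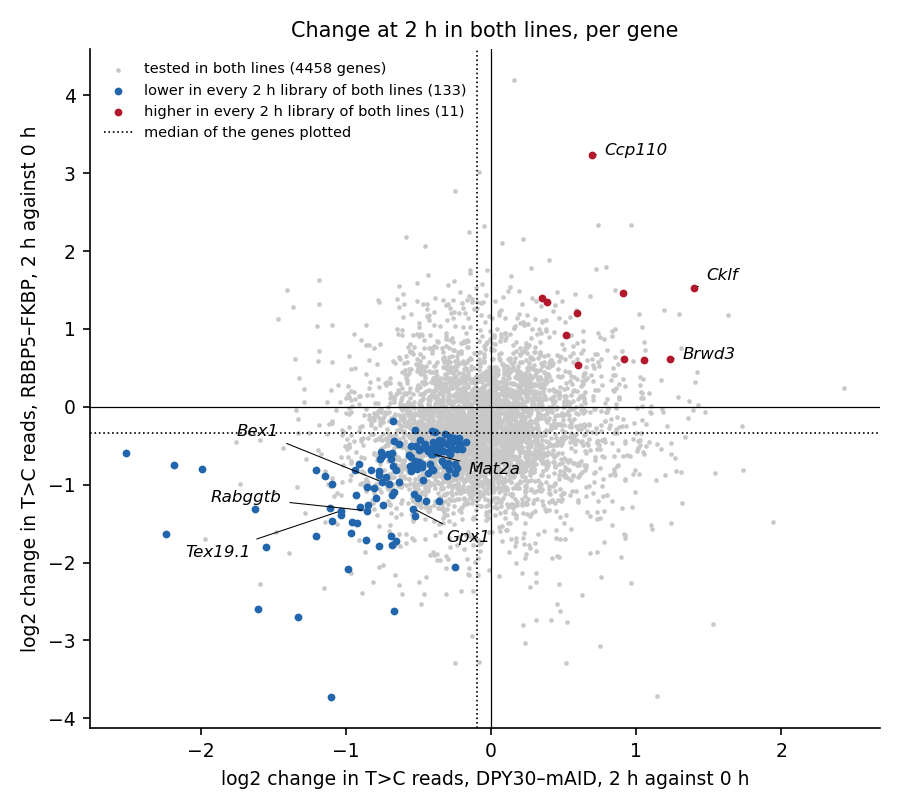
Log2 change in T>C reads at 2 h against 0 h for each of 4458 genes, DPY30–mAID on the horizontal axis and RBBP5–FKBP on the vertical axis; blue, the 133 genes lower in every 2 h library of both lines; red, the 11 that were higher. Scaled by T>C reads the counts were 38 and 40. Dotted lines mark the median gene, at -0.10 and -0.33.

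Shared lower genes lay mostly among the genes with many T>C reads, as seen when the 4458 genes were put into 4 groups of near equal size by level. In the group with the most T>C reads at 0 h (26.1 to 856 T>C CPM) 94 of 1115 genes (8.43%) were shared lower, and in the group with the fewest (1.92 to 7.99 T>C CPM) 6 of 1115 (0.538%). The groups between held 10 and 23. Calls in the mean of the lines followed the level too: 163 of the 1115 genes of the top group (14.6%) were called lower, against 1, 6 and 21 in the groups below. The median gene of the top group had 146 T>C reads per 0 h library in DPY30–mAID and 94.7 in RBBP5–FKBP, against 17.3 and 12.3 in the bottom group, so counting error was far larger there. The median log2 change was the lower the higher the level, from 0.10 in the bottom group to -0.20 in the top in DPY30–mAID, and from -0.21 to -0.43 in RBBP5–FKBP. Of the 11 shared higher genes 8 were in the bottom group. The 0 h level that made the groups is also the denominator of the change, and a gene with few reads at 0 h entered the test only with more at 2 h, so these differences between the groups are partly set in advance. The T>C share of the shared lower genes at 0 h was close to that of all genes tested: the median was 23.8% against 21.2% in DPY30–mAID and 14.1% against 12.4% in RBBP5–FKBP. The length of their 3′ UTRs was close too (median 1708 against 1754 bases).

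Mat2a had the lowest p in the mean of the lines. It codes for methionine adenosyltransferase, which makes S-adenosylmethionine, the methyl donor of histone methylation, and 13.7% of its reads were multiply mapped. Its T>C CPM were 974, 994 and 1037 at 0 h and 716, 791 and 813 at 2 h in DPY30–mAID, and 588, 513 and 503 at 0 h and 364, 347 and 361 at 2 h in RBBP5–FKBP. All 6 libraries at 2 h lay clear of their 0 h libraries. Its log2 change (± SE, as in all that follow) was -0.42 ± 0.07 in DPY30–mAID (adjusted p = 0.00808) and -0.60 ± 0.11 in RBBP5–FKBP (adjusted p = 0.00209). In the mean of the lines it was -0.51 ± 0.07 (adjusted p = 3.81e-06), and -0.35 when scaled by T>C reads (adjusted p = 0.0105). Of 11 genes of the methionine cycle tested in the mean fit, Mat2a was the only one that passed. Over all genes 3.16% were called lower there. The group with the most T>C reads held 4 of the 11, and 14.6% of that group were called lower. The median of the 11 was -0.14, against -0.19 over all genes.

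The promoters of 4 shared lower genes that differ in CpG content are shown as examples, since COMPASS acts at CpG-rich promoters (RefSeq starts, GRCm38.p6, 250 bases before to 50 after the start, 5′ to 3′ on the gene's strand, CpG in capitals). Mat2a is at chr6:72439507-72439806 (minus strand), Jade1 at chr3:41555484-41555783 (plus strand), Bex1 at chrX:136215464-136215763 (minus strand) and Tex19.1 at chr11:121145893-121146192 (plus strand).
Mat2a: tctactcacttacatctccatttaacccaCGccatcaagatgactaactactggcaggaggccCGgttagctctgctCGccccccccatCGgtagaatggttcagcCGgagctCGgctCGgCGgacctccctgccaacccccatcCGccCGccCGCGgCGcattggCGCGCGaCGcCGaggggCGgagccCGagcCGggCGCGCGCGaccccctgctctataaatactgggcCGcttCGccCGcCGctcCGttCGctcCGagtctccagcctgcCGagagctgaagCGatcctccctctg
Jade1: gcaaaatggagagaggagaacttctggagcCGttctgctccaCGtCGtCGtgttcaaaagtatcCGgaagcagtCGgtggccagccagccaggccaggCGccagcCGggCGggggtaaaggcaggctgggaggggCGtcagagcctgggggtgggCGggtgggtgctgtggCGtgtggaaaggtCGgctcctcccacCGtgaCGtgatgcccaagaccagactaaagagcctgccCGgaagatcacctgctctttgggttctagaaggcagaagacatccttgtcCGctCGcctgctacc
Bex1: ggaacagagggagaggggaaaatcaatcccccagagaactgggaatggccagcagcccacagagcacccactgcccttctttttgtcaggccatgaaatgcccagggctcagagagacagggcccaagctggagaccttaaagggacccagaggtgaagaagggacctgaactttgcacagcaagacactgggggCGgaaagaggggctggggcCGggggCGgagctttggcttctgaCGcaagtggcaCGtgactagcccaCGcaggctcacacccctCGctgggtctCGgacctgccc
Tex19.1: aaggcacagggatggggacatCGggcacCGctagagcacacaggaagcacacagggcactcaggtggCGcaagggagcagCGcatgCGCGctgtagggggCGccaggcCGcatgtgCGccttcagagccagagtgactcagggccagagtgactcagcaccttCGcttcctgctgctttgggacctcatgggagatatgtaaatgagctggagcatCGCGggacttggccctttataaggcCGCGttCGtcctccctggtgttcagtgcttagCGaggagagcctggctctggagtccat
They hold 34, 18, 8 and 16 CpG, against a median of 24 in the promoters of genes tested in both lines and 7 in all 32851 promoters of the table. Mat2a holds the TATA sequence TATAAA on its own strand, as 4.14% of the promoters of tested genes and 8.32% of all promoters do. It and Jade1 and Bex1 hold GGGCGG on either strand, a letter run that Sp1 family proteins bind, as 70.6% of tested and 35.7% of all promoters do. A promoter was matched for 104 of the 133 shared lower genes (78.2%) and for 3596 of the 4458 genes tested in both lines (80.7%). With genes unmatched in each, the group was not tested against all genes. The matched promoters of the shared lower genes had a median of 23.5 CpG. The 4 shown were picked to span CpG contents and do not stand for the group.

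Jade1 and Jarid2, both called lower in each line, code for chromatin proteins. Jade1 codes for a PHD finger subunit of the HBO1 histone acetyltransferase complex. It had 522, 595 and 669 T>C CPM at 0 h and 447, 486 and 443 at 2 h in DPY30–mAID, and 434, 517 and 544 and 294, 288 and 331 in RBBP5–FKBP. Its log2 changes were -0.42 ± 0.09 (adjusted p = 0.0425) and -0.73 ± 0.12 (adjusted p = 5.05e-04). Jarid2, a Polycomb repressive complex 2 subunit that belongs to the Jumonji family without demethylating, had 783, 718 and 786 and then 594, 594 and 612 in DPY30–mAID, and 531, 367 and 453 and then 319.5, 298 and 361 in RBBP5–FKBP. The log2 changes of Jarid2 were -0.39 ± 0.08 (adjusted p = 0.0274) and -0.48 ± 0.13 (adjusted p = 0.0434). Scaled by T>C reads, Jade1 still passed in the mean of the lines (-0.42, adjusted p = 0.0105) and Jarid2 did not (-0.28, adjusted p = 0.115).

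Brd2, a BET reader of acetylated histones, passed in DPY30–mAID, with 160.1, 174 and 148 and then 113, 93.7 and 89.4 T>C CPM and a log2 change of -0.74 ± 0.14 (adjusted p = 0.0169). In RBBP5–FKBP its libraries overlapped, at 70.7, 92.2 and 82.1 and then 59.3, 77.3 and 86.7, and the change was -0.15 ± 0.21 (adjusted p = 0.797). Scaled by T>C reads the RBBP5–FKBP value of Brd2 turned to 0.11. The difference, RBBP5–FKBP minus DPY30–mAID, was 0.58 ± 0.26 (adjusted p = 0.605), which did not pass.

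Bex1, Tex19.1 and Rabggtb had larger changes. Bex1 codes for a small X-linked adaptor protein, and Tex19.1 for a mammal-specific protein of pluripotent and germ cells. Bex1 had 133, 101 and 107 and then 76.4, 59.8 and 72.5 T>C CPM in DPY30–mAID, and 89.6, 89.8 and 101 and then 42.4, 52.6 and 49.9 in RBBP5–FKBP. That is -0.75 ± 0.17 (adjusted p = 0.0425) and -0.97 ± 0.22 (adjusted p = 0.0123) on the log2 scale. Tex19.1 had 79.6, 79.8 and 60.1 and then 34.1, 41.9 and 34.3 in DPY30–mAID (-1.03 ± 0.20, adjusted p = 0.0169). In RBBP5–FKBP Tex19.1 had 25.9, 15.8 and 16.7 and then 8.13, 10.99 and 4.04, which did not pass there (-1.33 ± 0.47, adjusted p = 0.158). Rabggtb, the catalytic subunit of the enzyme that prenylates Rab GTPases, changed by -0.86 ± 0.20 in DPY30–mAID (adjusted p = 0.0425) and by -1.33 ± 0.40 in RBBP5–FKBP, where it did not pass (adjusted p = 0.0862). All 3 passed in the mean of the lines on both scales.

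**Figure D3:**
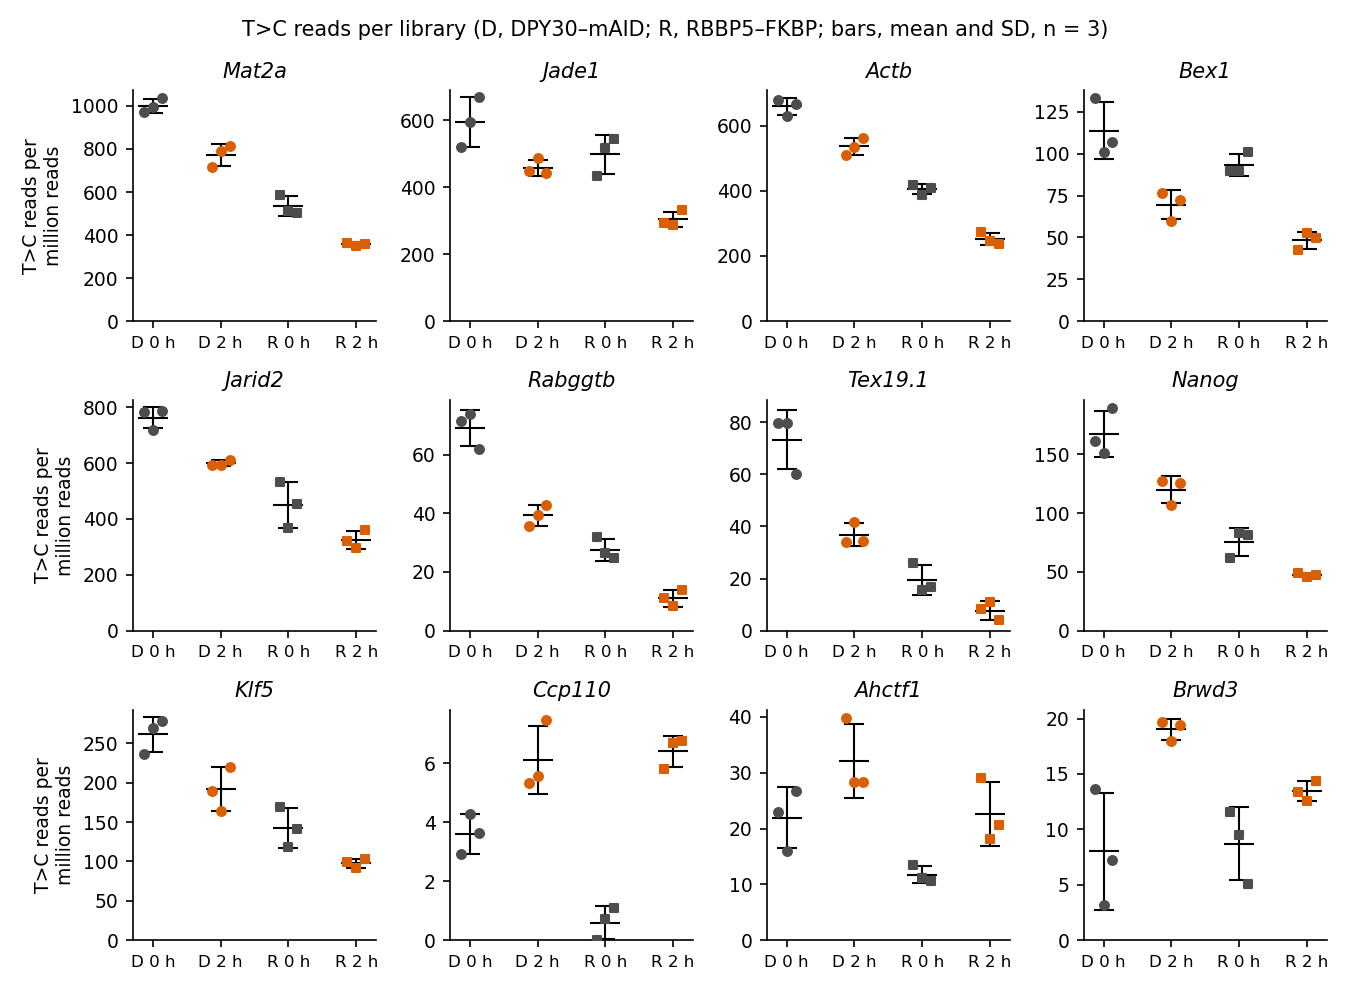
T>C CPM in each of the 12 libraries for 12 genes, with DPY30–mAID (circles) left and RBBP5–FKBP (squares) right in each panel, grey at 0 h and orange at 2 h; bars are the mean and SD of 3. Mat2a to Klf5 lie lower at 2 h in both lines; Ccp110, Ahctf1 and Brwd3 lie higher.

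Ldha, the lactate dehydrogenase A subunit, had 106, 108 and 97.4 and then 59.2, 61.4 and 76.5 T>C CPM in DPY30–mAID, and 79.4, 69.4 and 57.4 and then 41.2, 30.6 and 33.2 in RBBP5–FKBP. Both changes passed, at -0.70 ± 0.17 (adjusted p = 0.0426) and -0.99 ± 0.25 (adjusted p = 0.0313), although multiply mapped reads made up 23.7% of its total. Gpx1, a glutathione peroxidase, passed in RBBP5–FKBP (-1.31 ± 0.29, adjusted p = 0.0105) and had -0.54 ± 0.18 in DPY30–mAID (adjusted p = 0.190). C1qbp, a multifunctional mitochondrial matrix protein, likewise passed in RBBP5–FKBP (-1.21 ± 0.24, adjusted p = 0.00407), with -0.45 ± 0.14 in DPY30–mAID (adjusted p = 0.140). Igf2bp1, which binds and stabilises mRNA, had -0.85 ± 0.16 in RBBP5–FKBP (adjusted p = 0.00186) and -0.25 ± 0.11 in DPY30–mAID (adjusted p = 0.385). None of these differed between the lines with an adjusted p under 0.05.

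Actin genes were among the most abundant that fell. Actb, cytoplasmic β-actin, had 679.7, 629 and 667 and then 509, 535 and 563 T>C CPM in DPY30–mAID, and 418, 388 and 409 and then 274, 246 and 238 in RBBP5–FKBP. Its change passed in RBBP5–FKBP (-0.70 ± 0.13, adjusted p = 0.00178) and narrowly missed in DPY30–mAID (-0.34 ± 0.08, adjusted p = 0.0507). Of the 12 actin, SRF and YAP target genes tested in the mean fit, 4 passed, all lower (Actb, Actg1, Cfl1 and Tagln2). Over all genes 3.16% were called lower there. Of the 4 members in the group with the most T>C reads 3 passed, and of all genes of that group 14.6%. The list's median was -0.44 against -0.19 over all genes. On the T>C scale Actb (-0.37, adjusted p = 0.0122) and Actg1 (-0.44, adjusted p = 0.0175) still passed, and Cfl1 (-0.49, adjusted p = 0.110) and Tagln2 (-0.96, adjusted p = 0.147) did not.

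Several genes of this group share reads with near-identical copies, and their values are uncertain for that reason. The share of multiply mapped reads was 97.0% for Ppia, 100% for Olfr1388, 90.9% for H2afz, 78.4% for Tuba1b and 99.7% for Actg1. Ppia, the peptidyl-prolyl isomerase cyclophilin A, changed by -0.48 ± 0.10 (adjusted p = 0.0306) in DPY30–mAID and by -0.76 ± 0.14 (adjusted p = 0.00209) in RBBP5–FKBP. Olfr1388, named for an olfactory receptor, changed by -0.67 ± 0.15 (adjusted p = 0.0425) and -1.09 ± 0.23 (adjusted p = 0.00696). In all, 25 of the 133 shared lower genes had over 20% of such reads, as had 553 of the 4458 genes tested.

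Nufip2 was called in RBBP5–FKBP and not in DPY30–mAID, with 313, 312 and 293 and then 136, 145 and 168 T>C CPM there (-1.05 ± 0.15, adjusted p = 1.45e-05). In DPY30–mAID it had 354, 367 and 384 and then 296, 295 and 357 (-0.27 ± 0.10, adjusted p = 0.314). Ywhag, a 14-3-3 protein, had -1.34 ± 0.30 in RBBP5–FKBP (adjusted p = 0.00981) and -0.20 ± 0.13 in DPY30–mAID (adjusted p = 0.636). The tests of the difference gave adjusted p = 0.171 and adjusted p = 0.171. Pcyox1l was called in DPY30–mAID, with 27.3, 38.5 and 17.4 and then 10.7, 8.37 and 6.46 T>C CPM (-1.74 ± 0.36, adjusted p = 0.0300), and had -0.997 ± 0.47 in RBBP5–FKBP (adjusted p = 0.319).

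Of the naive pluripotency factors, 3 of 19 tested passed in the mean of the lines, all lower, where 3.16% of all genes did, and the list's median was -0.29. Of these factors 16 lay in the group with the most T>C reads, the 3 that passed among them, and 14.6% of all genes of that group passed. Nanog, a homeodomain factor of the naive state, had 162, 151 and 189 and then 127, 107 and 126 T>C CPM in DPY30–mAID, and 61.9, 82.7 and 81.7 and then 48.8, 45.9 and 47.6 in RBBP5–FKBP. The log2 change in the mean of the lines was -0.61 ± 0.13 (adjusted p = 0.00222). Klf5, a Krüppel-like factor of the same network, had -0.53 ± 0.11 (adjusted p = 0.00201), and Nr5a2, a nuclear receptor, -0.64 ± 0.18 (adjusted p = 0.0266). By single lines Nr5a2 passed in RBBP5–FKBP (-1.12 ± 0.295, adjusted p = 0.0434) and not in DPY30–mAID (-0.15 ± 0.19, adjusted p = 0.854). Its difference between the lines did not pass (adjusted p = 0.441). Nanog and Klf5 were shared lower genes. Scaled by T>C reads none of these 3 passed (-0.46, -0.37 and -0.48, adjusted p = 0.0937, 0.115 and 0.264).

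Most other lists held few genes that passed, to be read against the 3.16% of all genes, and the 14.6% of those in the group with the most T>C reads, called lower in the mean of the lines. Of 46 translation factors and tRNA synthetases tested in the mean fit 7 passed, among them the initiation factors Eif4a1 (-0.61 ± 0.12, adjusted p = 0.00118), Eif5a (-0.62 ± 0.13, adjusted p = 0.00312) and Eif1a (-0.52 ± 0.12, adjusted p = 0.00558); the list's median was -0.30. Of 69 cytosolic ribosomal proteins 4 passed (median -0.21), and of 68 ribosome biogenesis factors 3 passed, Ncl, Rrp1b and Nifk (median -0.26). Of 19 heat shock and chaperone genes 4 passed, among them Hspd1, the mitochondrial chaperonin (-0.64 ± 0.12, adjusted p = 5.52e-04), with a list median of -0.34. Of 36 SR, hnRNP and splicing factors 4 passed (median -0.27), and of 34 genes of G1/S and DNA replication 3 did (median -0.21): Ccnd2, Cdk6 and Ccne1. All of these were lower. Within the group with the most T>C reads the counts were 7 of 27 translation genes, 4 of 51 ribosomal proteins, 3 of 33 biogenesis factors, 4 of 15 chaperones, 4 of 27 splicing factors and 2 of 16 genes of G1/S and replication. With T>C reads as the scale 2 genes of these lists passed, Ccnd2 and the small heat shock gene Hspb1; Eif4a1 (-0.45, adjusted p = 0.0850), Eif5a (-0.46, adjusted p = 0.100), Eif1a (-0.37, adjusted p = 0.201) and Hspd1 (-0.48, adjusted p = 0.0538) did not. Multiply mapped reads made up 53.7% of the total for Eif4a1, 40.2% for Eif5a, 76.7% for Hspd1 and 84.8% for Hspb1.

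Ccnd2, which codes for cyclin D2, had the largest change of the 3, -1.29 ± 0.29 (adjusted p = 0.00510), with 23.1, 31.2 and 25.4 and then 11.04, 6.28 and 6.29 T>C CPM in RBBP5–FKBP (-1.79 ± 0.43, adjusted p = 0.0198). In DPY30–mAID it had 14.2, 13.2 and 24.3 and then 7.81, 12.4 and 10.9, which did not pass (-0.78 ± 0.38, adjusted p = 0.480). Its mean over the lines also passed when scaled by T>C reads (-1.14, adjusted p = 0.0419). Cdk6 and Ccne1 did not (-0.60 and -0.37, adjusted p = 0.213 and 0.316). Of 13 FGF and ERK feedback genes Phlda1 alone passed (-1.09 ± 0.24, adjusted p = 0.00362), and of 9 Nodal and BMP feedback genes Id1, an inhibitor of bHLH factors, alone did (-0.81 ± 0.19, adjusted p = 0.00699). Of the 7 Myc and Max network genes tested, Mga, a repressor that pairs with Max, alone passed (-0.99 ± 0.22, adjusted p = 0.00371). These 3 calls were lost when scaled by T>C reads (-0.93, adjusted p = 0.0537 for Phlda1; -0.66, 0.0852 for Id1; -0.83, 0.0509 for Mga). Of 15 immediate early genes and of 35 genes of pausing, elongation and Integrator none passed in the mean fit, at medians of -0.29 and -0.27, nor did any of 11 integrated stress response genes (-0.17) and 2 AhR targets (0.43).

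The remaining lists had few calls, all lower. Of 16 p53 targets Mdm2 passed in the mean fit (median -0.35), and Gtse1 in the DPY30–mAID fit (-0.98 ± 0.23, adjusted p = 0.0426). Of 16 cholesterol genes Hmgcs1 passed (median -0.26), of 12 hypoxia-responsive genes Ldha (-0.30), of 33 mitotic genes Arl6ip1 (-0.16), and of 6 linker and replication-independent histones H2afz and H3f3b (-0.24). Of these, Ldha and H2afz still passed when scaled by T>C reads, and Mdm2 (-0.48, adjusted p = 0.268), Hmgcs1 (-0.30, adjusted p = 0.361), Arl6ip1 (-0.24, adjusted p = 0.438) and H3f3b (-0.23, adjusted p = 0.438) did not. No primitive endoderm or trophectoderm marker passed (3 and 1 tested, medians 0.04 and 0.09).

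COMPASS genes and H3K4 demethylases were examined as well. In the mean of the lines 3.16% of all genes were called lower, and 14.6% of the group with the most T>C reads. Of 18 COMPASS and MLL subunits tested, Setd1b, a catalytic subunit of SET1, alone passed in the mean of the lines (-0.47 ± 0.14, adjusted p = 0.0420). The list's median was -0.10, against -0.19 over all genes. Setd1b passed in neither single line, at -0.15 ± 0.14 in DPY30–mAID (adjusted p = 0.802) and -0.78 ± 0.26 in RBBP5–FKBP (adjusted p = 0.118). Of 4 H3K4 demethylases Kdm5b alone passed (-0.46 ± 0.12, adjusted p = 0.0136). Neither passed when scaled by T>C reads (-0.31, adjusted p = 0.424 for Setd1b; -0.30, adjusted p = 0.307 for Kdm5b), where the median of the COMPASS and MLL subunits was 0.05. The degron acts on the protein, so the tagged genes' RNA is no check of the degradation. Dpy30 had 52.7, 43.5 and 55.8 and then 48.9, 36.3 and 23.8 T>C CPM in DPY30–mAID (-0.51 ± 0.24, adjusted p = 0.437). Rbbp5 had 16.2, 11.2 and 21.4 and then 8.13, 9.03 and 11.7 in RBBP5–FKBP (-0.77 ± 0.46, adjusted p = 0.466).

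The 11 shared higher genes were Ccp110, Ahctf1, Brwd3, Atp5e, Dis3, Cklf, Cdkn2aip, Fam220a, Ccdc32, Synj2bp and Mrpl47. Their median change was 0.70 in DPY30–mAID and 1.21 in RBBP5–FKBP, but they rest on few reads: the median gene had 16.3 T>C reads per 0 h library in DPY30–mAID and 8.67 in RBBP5–FKBP. The filter asked for a mean of 10 T>C reads at 0 h or at 2 h, and 2 of the 11 in DPY30–mAID and 6 in RBBP5–FKBP passed it through the 2 h libraries alone, so their direction was partly set by the filter; 8 and 20 of the 133 shared lower genes likewise passed through the 0 h libraries alone. Ccp110, a centriolar protein that caps the mother centriole, had 2.93, 4.28 and 3.62 and then 5.34, 5.58 and 7.45 T>C CPM in DPY30–mAID. In RBBP5–FKBP it had 0, 0.701 and 1.09 and then 5.81, 6.67 and 6.74, 1 library at 0 h having no T>C read, and it passed in the mean of the lines and in neither single fit (1.96 ± 0.59, adjusted p = 0.0490). With so few reads at 0 h its fitted change depends on the prior count and is no bound. The call of Ccp110 was lost when scaled by T>C reads (2.11, adjusted p = 0.0717) and with the replicate block (2.02, adjusted p = 0.0746), and DESeq2 gave it no adjusted p. Ahctf1, which codes for the nucleoporin ELYS, had 22.9, 16.0 and 26.8 and then 39.9, 28.3 and 28.3 in DPY30–mAID, and 13.4, 11.2 and 10.5 and then 29.1, 18.1 and 20.7 in RBBP5–FKBP. Ahctf1 did not pass in the mean by edgeR (0.71 ± 0.25, adjusted p = 0.103), nor did the other 9, whereas DESeq2 called Ahctf1 (adjusted p = 0.0274) and Brwd3 (adjusted p = 0.0492). Fam220a and Ccdc32 had a T>C conversion in 6.46% and 5.79% of their reads without 4-thiouridine, and Fam220a and Cklf had over 20% multiply mapped reads.

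Called higher outside that list were Stard7 and Banp. Stard7, a phosphatidylcholine transfer protein, had 10.7, 11.04 and 17.8 and then 23.0, 17.9 and 27.8 T>C CPM in DPY30–mAID and 4.16, 0.351 and 1.82 and then 2.32, 21.2 and 7.64 in RBBP5–FKBP, where the times overlapped (1.56 ± 0.39 in the mean, adjusted p = 0.0136). With the replicate block the call of Stard7 was lost (1.44, adjusted p = 0.0563). Banp, which binds unmethylated CpG-rich promoter motifs, had 8.79, 9.62 and 7.61 and then 22.6, 19.9 and 32.8 in DPY30–mAID (1.48 ± 0.36, adjusted p = 0.0457). In RBBP5–FKBP it had 15.7, 9.12 and 6.54 and then 8.13, 7.85 and 13.9, which overlapped (-0.07 ± 0.51, adjusted p = 0.964). The difference, RBBP5–FKBP minus DPY30–mAID, was -1.56 ± 0.62 (adjusted p = 0.551), which did not pass. The call of Banp was lost when scaled by T>C reads and with the replicate block. It was also lost without DPY30–mAID 0 h replicate 2 or any 1 of the 2 h replicates.

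All reads of a gene, labelled or not, were tested as well; its T>C reads are part of them. In DPY30–mAID 3 of 9354 genes passed, all lower (0.0321%): Phlda1 (-0.87 ± 0.16), Smarcad1 (-0.68 ± 0.12) and Lrrc17 (-0.54 ± 0.09), each with an adjusted p of 0.0122 (edgeR; log2 ± SE). Every read of Lrrc17 was multiply mapped. Phlda1, a pleckstrin homology domain protein, had 146, 120 and 133 CPM at 0 h over all its reads and 85.9, 65.4 and 74.0 at 2 h. In RBBP5–FKBP 0 of 9297 genes passed, with unadjusted p under 0.05 for 403 lower and 344 higher genes. Without RBBP5–FKBP 0 h replicate 1 there were 25 lower and 20 higher. In DPY30–mAID 0 remained without 0 h replicate 2 or 2 h replicates 1 or 2, 17 lower and 2 higher without 0 h replicate 3, and 6 lower without 2 h replicate 3. The median over the 133 shared lower genes was -0.23 in DPY30–mAID and -0.14 in RBBP5–FKBP, against -0.01 and 0.00 over all 4458 genes. The T>C reads of the same libraries chose the 133 and are part of all reads, so these medians are partly set by that choice.

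The dKO libraries took no part in choosing the shared genes, with 2 libraries per time. At 0 h to 4 h they held between 5931269 and 7792404 reads, with 11.2 to 11.3 covered T positions per read. The 12 libraries of the other lines covered 18.4 to 19.0 per read. T>C CPM of a gene can therefore not be compared between the dKO and those lines. By 2 h after auxin 0 of 5965 genes passed in either direction in the dKO line (edgeR; unadjusted p under 0.05 for 346 lower and 114 higher; DESeq2 was not run there). By 4 h 35 passed, all lower (0.587%). Of the 129 shared lower genes tested there, 103 had a value below 0 at 2 h and 122 at 4 h, that is 79.8% and 94.6%, against 65.1% and 79.1% of the 4162 genes tested there and in both lines. Their median was -0.27 at 2 h and -0.41 at 4 h, against -0.13 and -0.26. Both 2 h libraries lay under both 0 h libraries for 64 of the 129 (28.4% of the 4162 genes did), and both 4 h libraries for 87 (41.3% of the 4162). The T>C share of reads was between 4.69% and 5.27% at 0 h, between 4.34% and 4.85% at 2 h, which overlap, and between 4.13% and 4.22% at 4 h, and its part in these values was not tested.

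Of the 129 shared lower genes tested in the dKO 12 passed at 4 h, as did 34 of the 4162 genes, which are of all T>C levels. Mat2a had 63.5 and 72.0 T>C CPM at 0 h, 47.8 and 49.8 at 2 h and 40.4 and 41.5 at 4 h. Its log2 change was -0.48 ± 0.15 at 2 h (adjusted p = 0.371) and -0.75 ± 0.16 at 4 h (adjusted p = 0.00447). Bex1 had 42.6 and 53.9 at 0 h, 33.9 and 33.4 at 2 h and 28.7 and 29.2 at 4 h, with -0.76 ± 0.17 at 4 h (adjusted p = 0.0103). Jade1 had 161 and 176 at 0 h, 122 and 151 at 2 h and 102 and 94.1 at 4 h, with -0.80 ± 0.15 at 4 h (adjusted p = 9.12e-04). Gpx1 had 0.17 ± 0.28 at 2 h (adjusted p = 0.918). The 35 calls at 4 h rest on single libraries: 78 without 0 h replicate 1, 8 without 0 h replicate 2, and 2 and 1 without 4 h replicates 1 and 2. The shared higher genes had a median of 0.11 at 2 h and -0.15 at 4 h over the 10 tested, with 3 and 7 of them below 0.

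By 8 h, measured against the same 0 h libraries as the 2 h values, 1017 genes were lower (16.1%) and 10 higher of 6317 in DPY30–mAID, and 367 lower (7.71%) and 6 higher of 4761 in RBBP5–FKBP. The 8 h libraries of DPY30–mAID ranged from 5.51% to 13.035% of reads with a conversion, and without 8 h replicate 1 the 1017 became 2000. The counts were 521, 646 and 589 without DPY30–mAID 0 h replicates 1, 2 and 3, and 586 without 8 h replicate 2. In RBBP5–FKBP they were 221 and 228 without 0 h replicates 2 and 3, and 214, 177 and 221 without 8 h replicates 1, 2 and 3. The shared lower genes had a median of -1.31 in DPY30–mAID and -0.81 in RBBP5–FKBP at 8 h, beside -0.77 and -0.52 over the 4458 genes; 100 and 45 of the 133 passed there, as did 951 and 358 of the 4458. The 133 were chosen for 0 h values above those at 2 h, and the same 0 h libraries are the denominator at 8 h, so lower 8 h values of the 133 are partly set by that choice. For Mat2a the 8 h values were -2.41 ± 0.27 and -1.90 ± 0.16, and for Bex1 -2.48 ± 0.33 and -1.51 ± 0.26. For Phlda1 they were -2.23 ± 0.39 and -3.60 ± 0.67. The shared higher genes had medians of 0.07 in DPY30–mAID and 0.35 in RBBP5–FKBP, with 5 and 2 of the 11 below 0.

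**Figure D4:**
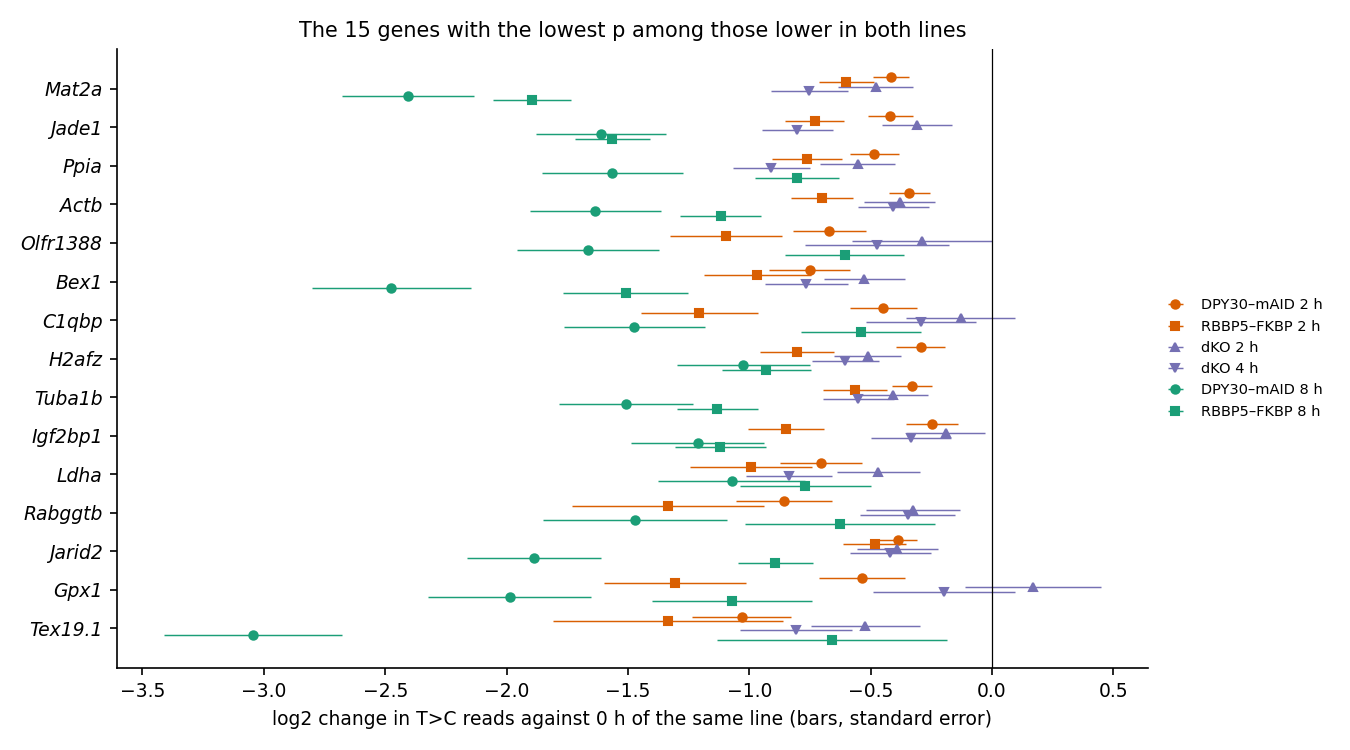
Log2 change in T>C reads against 0 h of the same line, with standard errors, for the 15 shared lower genes of lowest p; orange, 2 h in DPY30–mAID (circles) and RBBP5–FKBP (squares); purple, the dKO at 2 h and 4 h; green, 8 h. The 2 h values in both degron lines lie under 0 for all 15, by the choice of the genes, and at 8 h, against the same 0 h libraries, Mat2a, Jade1 and Bex1 lie beyond -1.5 in both lines.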

How the data were processed

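The authors made 3′ mRNA libraries (QuantSeq FWD) and deposited, per 3′ UTR interval, counts of reads and of reads with a T>C conversion; the file headers name SlamDunk 0.3.4 and GENCODE vM14 intervals, and the labels name mm10. Counts were summed per gene (20177 genes, symbols and positions from GENCODE vM21). No UMIs were used, and p-values measure the spread between the 3 libraries per group that the study calls biological replicates. The study kept reads with 2 or more conversions; the deposited counts hold all reads with a conversion, so that filter was not repeated.

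Each line was fitted alone with edgeR 4.0.16 (R 4.3.3): quasi-likelihood, library size from all reads with TMM factors from all reads, genes with a mean of 10 or more T>C reads at 0 h or 2 h, Benjamini-Hochberg adjusted p under 0.05. A joint fit of 12 libraries gave the mean of, and the difference between, the lines. The dKO line and the 8 h values came from fits of all times of a line. Fold changes are log2 ± standard error; p-values in the text are from edgeR. Named genes were the 15 lower and 10 higher shared genes of lowest p, up to 10 called genes per direction and fit, called list members (up to 4 a list), Dpy30 and Rbbp5; Mrpl47, Pcbp1, Smarcad1 and Lrrc17 were named after their values were seen, to complete short lists. The shared genes and gene lists were chosen with earlier results of these data known. Alternatives, DESeq2 1.42.0 among them, are given at the end. Replicate numbers were not taken to pair the libraries, since the labels do not say that they do. The deviations of same-numbered libraries from their group means correlated between -0.02 and 0.03. Counting error draws such correlations towards 0, so they do not settle whether the libraries were paired. The statistics were tested on simulated data. The Quant-seq libraries of other times were not used here.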

Additional observations from a re-analysis of the deposited data

Results flagged for a closer look

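Genes that moved in opposite directions in the lines, without overlap between 0 h and 2 h in either, were 31 that were higher in every 2 h library of DPY30–mAID and lower in every one of RBBP5–FKBP, and 5 with the reverse pattern. The 31 are 12.5% of the genes higher without overlap in DPY30–mAID, where 16.7% of all 4458 genes were lower without overlap in RBBP5–FKBP, and the 5 are 1.13% of those lower in DPY30–mAID, where 2.8% of all were higher in RBBP5–FKBP; neither count is above the background share. No gene of either kind passed the test of the difference between the lines (edgeR, lowest adjusted p = 0.195 and 0.383), and 30 of the 31 and 4 of the 5 had an unadjusted p under 0.05, by the choice of the genes.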

How the results depend on the processing

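The calls depend on the scale, on the spread used and on single libraries. Counts are given as lower and higher genes in DPY30–mAID, RBBP5–FKBP and the mean of the lines, where the reported counts were 25 and 1, 45 and 0, and 193 and 2. With an unadjusted p they were 476 and 146, 607 and 50, and 816 and 91, and for the difference 351 and 114. Scaled by TMM from T>C reads they were 0 and 0, 0 and 0, and 29 and 1. With all reads as library size and no TMM they were 4 and 0 in DPY30–mAID, and the mean had 1 higher. With DESeq2 they were 100 and 2, 107 lower, 349 and 5, and 4 lower for the difference. Any T>C read as the filter gave 38 and 2 in DPY30–mAID; a mean of 30 gave 84 and 2 there and 120 lower in RBBP5–FKBP, with fewer genes tested. All 4 times in the fit gave 0 and 0, 12 lower, and 0 and 0. Without genes over 20% multiply mapped, DPY30–mAID had 0 higher, RBBP5–FKBP 26 lower and the mean 1 higher. The replicate block gave 2 and 0 in DPY30–mAID and 0 higher in the mean, and changed no other count by over 1.5 times. Whether the numbers pair the libraries is not known. Where the construction does not show it, the cause was not tested.

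Leaving out 1 library gave 0 to 28 lower and 0 to 1 higher genes in DPY30–mAID, 2 to 65 and 0 to 1 in RBBP5–FKBP, 109 to 228 and 1 to 14 in the mean, and 0 to 1 lower for the difference. It gave, for all reads, 0 to 17 lower and 0 to 2 higher in DPY30–mAID and 0 to 25 and 0 to 20 in RBBP5–FKBP; for the dKO, 0 to 9 higher at 2 h and 1 to 78 lower at 4 h; for 8 h, 521 to 2000 and 3 to 27 in DPY30–mAID and 177 to 246 and 1 to 10 in RBBP5–FKBP. A group left with 1 library is assumed to vary like the others. For these 3 comparisons leaving out was chosen after seeing the data.

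The shared genes, 133 lower and 11 higher, became 38 and 40 when scaled by T>C reads, and 38 were lower on both scales, a count chosen after seeing the data. A mean of 30 left 1 higher, conversions per covered T gave 1 higher, pairs of the same number 334 and 60, and leaving out 1 library, which loosens the rule, 160 to 195 and 13 to 25. Of the 133, 57 were also lower in conversions per covered T.

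No named gene that passed changed sign. Of those that did not pass, in RBBP5–FKBP, Brd2 turned to 0.11, Banp to 0.22 and Dpy30 to 0.0254 with TMM from T>C reads. With 1 library left out Banp ran from -0.39 to 0.34, above 0 without 0 h replicate 1 (0.34) or 2 h replicates 1 (0.06) or 2 (0.09), and Dpy30 from -0.44 to 0.0291, above 0 without 0 h replicate 2.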
